A study of Homo sapiens with 3 samples.

Results

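The genes described here are 37 human genes of homologous recombination and of the Fanconi anaemia pathway, out of 58735 genes in the expression table. They were chosen by name: the BRCA1/BRCA2 axis, the strand-exchange paralogs RAD51B, RAD51C, RAD51D, XRCC2 and XRCC3 with RAD54L and RAD54B, the genes of break ends, resection and the RecQ helicases, the Fanconi anaemia genes with UBE2T and SLX4, and the checkpoint genes ATM, ATR, ATRIP, TOPBP1, CHEK1 and CHEK2. All 37 were found by symbol, each in 1 row. Expression was measured by RNA-seq in NCI-H660 (H660), an established human neuroendocrine prostate cancer cell line, in its parental form. Cells received vehicle (DMSO), 2.5 μM JG231 or 5 μM JG231 for 24 h, and JG231 is an allosteric inhibitor of the chaperone HSP70. Each of the 3 conditions is 1 library of 1 cell line, so there is no replicate, no standard deviation and no p-value for any value given here, and both doses are set against the same DMSO library.

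Homologous recombination copies the sister chromatid to mend a broken chromosome. The MRE11-RAD50-NBN complex binds the ends, nucleases cut a strand back, and BRCA1, PALB2 and BRCA2 prepare the strand for pairing with its copy, a step that the strand-exchange paralogs assist. The Fanconi anaemia proteins act on crosslinks between the strands: a core ubiquitin ligase with its partner UBE2T marks the FANCD2-FANCI pair, which brings in nucleases held by SLX4. ATM is activated by broken ends and ATR, with ATRIP and TOPBP1, by single-stranded DNA at stalled forks, and they signal through CHEK2 and CHEK1. Inherited and somatic defects in several of these genes are known in advanced prostate cancer.

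The libraries held 16.1 to 24.1 M counted fragments, the DMSO library being the shallowest and the 5 μM library the deepest, and the number of genes above 0 went from 21862 in DMSO to 17293 at 5 μM. Mitochondrially encoded genes took 39.8% of all FPKM with DMSO, 24.1% with 2.5 μM and 28.8% with 5 μM JG231. FPKM is fragments per kb of exon and per M fragments. The sample records name the cells a prostatic adenocarcinoma while the study describes a neuroendocrine line. All 6 neuroendocrine markers examined were above 0 in every library, with a summed level of 428 FPKM with DMSO, 176 with 2.5 μM and 151 with 5 μM. Of the other cell types a culture could hold, 3 fibroblast markers summed to 0.811 to 1.32 FPKM, with DCN at 0 in every library, and 3 leukocyte markers to at most 0.284, with PTPRC and CD3E at 0 in every library.

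A change is given as log2 of JG231 over DMSO after 0.1 FPKM was added to both. Genes with an FPKM over 1 in either library compared were counted, and a gene was called higher or lower where its change passed 0.25, the limits of the study. Of the 37 members, 35 passed the expression filter at each dose. RAD51B, with 0.549, 0.256 and 0.484 FPKM in DMSO, 2.5 μM and 5 μM, and RAD50, with 0.433, 0.316 and 0.425 FPKM, did not. At 2.5 μM, 11 members were higher (31.4% of 35, against 36.4% of all 15746 genes tested) and 13 were lower (37.1%, against 43.4%). At 5 μM, 7 were higher (20.0%, against 36.5% of 15765 genes) and 15 were lower (42.9%, against 45.1%). The median change of the members was 0.00 at 2.5 μM and -0.11 at 5 μM, beside -0.08 and -0.11 over all genes. All 4 of these member shares lay under those of all genes, and against protein-coding genes alone (38.3% higher and 37.2% lower at 2.5 μM, 38.0% and 39.6% at 5 μM) the share lower at 5 μM was above the background and the other 3 were under it. Past a change of 0.5, 6 of the 35 were higher and 7 lower at 2.5 μM, beside 26.7% and 34.5% of all genes and 26.8% and 26.6% of protein-coding genes, and 5 were higher and 12 lower at 5 μM, beside 27.8% and 36.8% of all genes and 27.6% and 29.7% of protein-coding genes. Past a change of 1, no member was higher at 2.5 μM (12.9% of all genes, 10.7% of protein-coding genes) and 2 were lower, ATM and SLX4 (21.7% and 12.4%). At 5 μM FANCE and RAD51C were higher past 1 (14.7% of all genes, 12.4% of protein-coding genes), and BRCA2, ATM, SLX4, ATR and XRCC2 were lower (24.3% and 15.3%). On a scale that leaves mitochondrial and small RNA genes out of each library's sum, the median gene moved to -0.28 at 2.5 μM and -0.38 at 5 μM, and directions below are relative to the scale as deposited. On that other scale the members split into 6 higher and 19 lower at 2.5 μM (17.1% and 54.3%), beside 24.7% and 55.6% of all genes and 25.1% and 51.4% of protein-coding genes. At 5 μM they split into 5 higher and 26 lower (14.3% and 74.3%), beside 23.1% and 59.6% of all genes and 22.7% and 56.6% of protein-coding genes. Among the 16 members with a mean of at least 5 FPKM the balance was the other way, with 9 higher and 3 lower at 2.5 μM (56.2% and 18.8%), beside 48.0% and 26.1% of all genes and 47.8% and 25.4% of protein-coding genes at that level. At 5 μM 7 of them were higher and 3 lower (43.8% and 18.8%), beside 48.8% and 27.4% of all genes and 48.3% and 27.0% of protein-coding genes, so most of the members called lower had a mean under 5 FPKM.

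**Figure D1:**
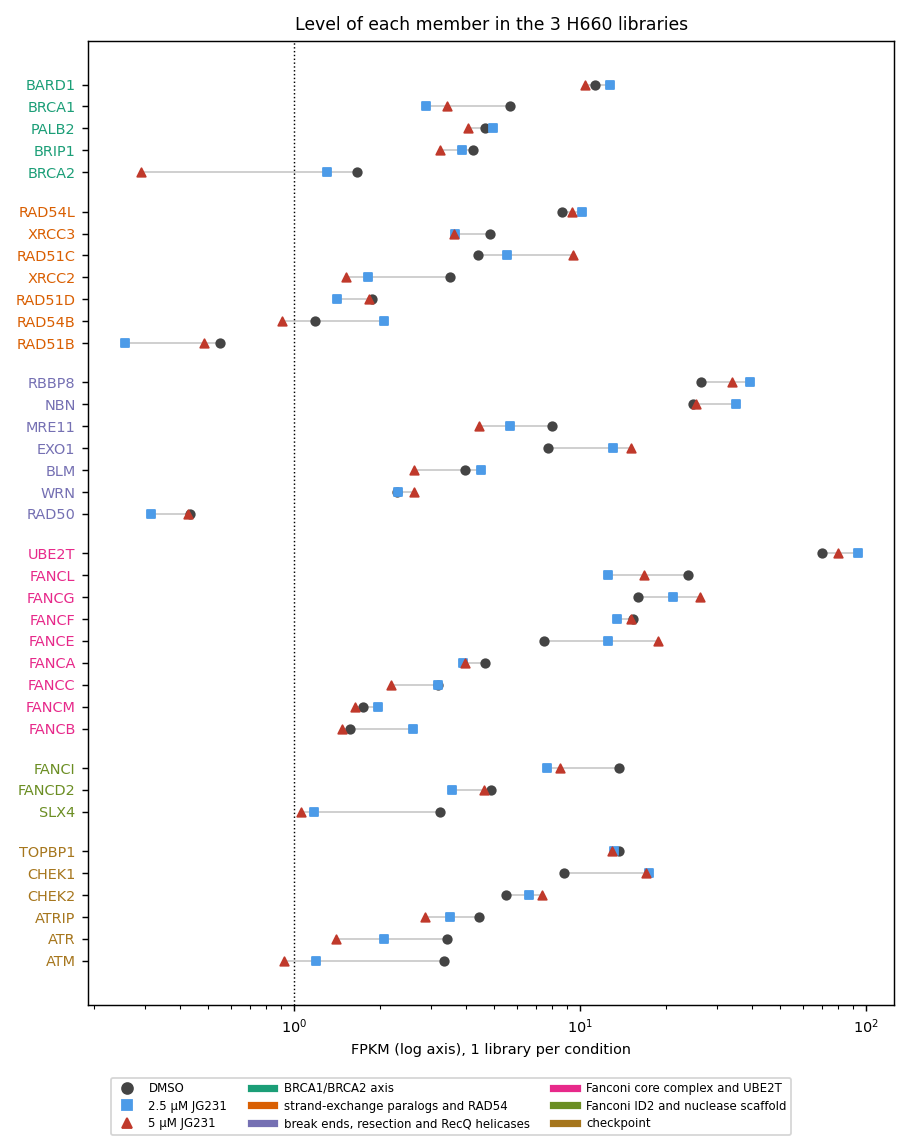
Level of each of the 37 members in the 3 H660 libraries (x axis, FPKM on a log axis; 1 point per library; colours of the gene names mark the 6 groups; the dotted line is 1 FPKM). UBE2T had the highest level, at 70.2 to 93.5 FPKM, and RAD50 and RAD51B lay under 1 FPKM in all 3 libraries.

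As a measure of how far libraries can differ, each change was set beside the robust SD of the difference between the 2 JG231 libraries over the 500 genes nearest in level, called the library spread below. It is not a replicate error and it includes any effect of dose. In all, 13 members passed it at both doses in the same direction, 5 higher and 8 lower. That is 14.3% and 22.9% of the 35, beside 23.9% and 27.9% of 15164 genes and 27.2% and 21.5% of 11690 protein-coding genes under the same criterion, so the lower share was close to the background and the higher share was under it. The 5 higher ones were CHEK1, EXO1, FANCE, FANCG and RBBP8, of which FANCG at 2.5 μM and RBBP8 at 5 μM were not called on the scale without mitochondrial and small RNA genes, and the 8 lower ones were ATM, SLX4, XRCC2, ATR, BRCA1, MRE11, FANCI and FANCL. Intervals given with ratios are exact 95% intervals for counting error only, computed from fragments without the added 0.1 FPKM, so for weakly expressed genes the change can sit at the edge of its interval.

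The checkpoint genes differed in direction among themselves. ATM, the kinase of broken ends, had 3.34 FPKM with DMSO, 1.20 with 2.5 μM and 0.924 with 5 μM, from 1290, 585 and 533 fragments, which is 0.358 and 0.276 of the DMSO level. ATR, the kinase of stalled forks, went from 3.43 FPKM to 2.07 and 1.40, and its partner ATRIP from 4.44 to 3.50 and 2.88. In these 3 genes both JG231 libraries were under the DMSO library and the 5 μM library was the lowest, with ATRIP past the library spread of 0.48 at 5 μM (-0.61) but not at 2.5 μM (-0.34). Of the exonic bases of ATRIP, 26.7% are shared with TREX1 on the same strand. The level of ATRIP is uncertain because the counting of fragments on shared bases is not given. TOPBP1, the activator of ATR, had 13.7, 13.1 and 12.9 FPKM and stayed within the limit of 0.25 at both doses. CHEK1, the effector kinase of ATR, was 8.81 FPKM with DMSO, 17.4 with 2.5 μM and 17.0 with 5 μM, a ratio to DMSO of 1.98 and 1.93 from 929, 2326 and 2679 fragments. CHEK2, the effector of ATM, was 5.51, 6.61 and 7.34 FPKM, a change of 0.26 at 2.5 μM, inside its library spread of 0.38, and of 0.41 at 5 μM. ATM and ATR were therefore lower and CHEK1 higher in both JG231 libraries, with counting intervals of the log2 ratio at 5 μM of -2.00 to -1.71 for ATM, -1.48 to -1.12 for ATR and 0.84 to 1.06 for CHEK1. The calls of CHEK2 were lost on a scale that leaves out mitochondrial and small RNA genes, at -0.03 for 2.5 μM and 0.03 for 5 μM, and with the trend of transcript length removed, at 0.02 and 0.07. The group's median change was -0.20 at 2.5 μM and -0.35 at 5 μM, with 2 of 6 higher and 3 of 6 lower at each dose. Among members with a mean of at least 5 FPKM, which leaves out ATM, ATR and ATRIP, the median was 0.26 and 0.41.

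All 5 genes of the BRCA1/BRCA2 axis passed the filter and none was called higher at either dose. BRCA1, a ubiquitin ligase subunit and scaffold, had 5.70 FPKM with DMSO, 2.89 with 2.5 μM and 3.44 with 5 μM. Its log2 ratio had a counting interval of -1.14 to -0.82 at 2.5 μM and of -0.87 to -0.59 at 5 μM. BARD1, with which BRCA1 forms its ligase, was the most abundant of the 5 with 11.3, 12.7 and 10.4 FPKM and was called at neither dose. The changes of these partners were unequal, at -0.95 and -0.71 for BRCA1 and 0.17 and -0.11 for BARD1. BRCA2, the gene mutated in hereditary breast and ovarian cancer beside BRCA1, was 1.67, 1.30 and 0.291 FPKM, from 329, 326 and 86 fragments. Its change of -2.17 at 5 μM was the lowest of the 35 members tested, and its level at 5 μM lay under both other libraries, with an interval against 2.5 μM of -2.52 to -1.82. With a pseudocount of 1 FPKM the change was -1.05. PALB2, which links BRCA1 to BRCA2, stayed within 0.25 at both doses with 4.66, 4.97 and 4.06 FPKM. BRIP1, a helicase bound by BRCA1, was 4.23, 3.85 and 3.25 FPKM, a change of -0.37 at 5 μM inside its library spread of 0.50, which turned to 0.08 once the trend with transcript length was removed.

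The strand-exchange paralogs, which work as complexes at the resected strand, were split. RAD51C, a subunit of both paralog complexes, was 4.38 FPKM with DMSO, 5.57 with 2.5 μM and 9.44 with 5 μM, from 428, 689 and 1378 fragments. Its level was highest at 5 μM, where the ratio to DMSO was 2.15, and the interval of its log2 ratio between the doses was 0.63 to 0.89. XRCC2, which pairs with RAD51D, went the other way with 3.50, 1.82 and 1.52 FPKM, a ratio to DMSO of 0.521 and 0.436. RAD51D had 1.87, 1.42 and 1.83 FPKM, lower at 2.5 μM only and inside its library spread. XRCC3, the partner of RAD51C, had 4.84, 3.64 and 3.63 FPKM and was called lower at both doses, inside its spread of 0.53. Of its exonic bases, 76.7% are shared with KLC1 on the opposite strand, and its level is uncertain because the use of strand in counting is not given. Of the RAD54 translocases, which remodel the joined strands, RAD54L was 8.65, 10.1 and 9.35 FPKM and was called at neither dose. RAD54B was 1.18, 2.07 and 0.907 FPKM, from 101, 224 and 116 fragments. It was called higher at 2.5 μM (0.76) and lower at 5 μM (-0.35), both inside its library spread of 0.92, with 66.0% of its exonic bases shared with FSBP on the same strand. The median change of the 6 tested was -0.07 at 2.5 μM and -0.19 at 5 μM, with 2 higher and 3 lower at 2.5 μM and 1 higher and 3 lower at 5 μM.

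Among the genes that act on the broken ends, EXO1, an exonuclease of long-range resection, had 7.75 FPKM with DMSO, 13.0 with 2.5 μM and 15.1 with 5 μM. RBBP8, which encodes CtIP, the partner that starts resection, was 26.5, 39.3 and 34.1 FPKM. Both were higher in each JG231 library than in DMSO, although RBBP8 at 5 μM came to -0.02 on the scale without mitochondrial and small RNA genes. MRE11, the nuclease of the end-binding complex, was lower with 7.95, 5.69 and 4.43 FPKM, a ratio to DMSO of 0.715 and 0.556. NBN, the subunit that recruits ATM, was 24.8, 35.1 and 25.4 FPKM, called higher at 2.5 μM (0.50) and not called at 5 μM (0.03). On the scale without mitochondrial and small RNA genes these came to 0.21, under the limit, and -0.34. The subunits of this complex thus had different patterns, and RAD50, its ATPase, was under the expression filter and was not compared. Of its exonic bases, 76.9% belong also to another gene on the same strand, ENSG00000283782, which was listed at 0 in all 3 libraries, and its level is uncertain because the treatment of fragments on shared bases is not given in the sources used here. BLM, the RecQ helicase that dissolves joined molecules, was 3.95, 4.49 and 2.63 FPKM, lower at 5 μM only (-0.57, library spread 0.50). WRN, the other RecQ helicase, was 2.28, 2.31 and 2.62 FPKM and was called at neither dose. Of the 6 tested, 3 were higher and 1 lower at 2.5 μM and 2 were higher and 2 lower at 5 μM, with a median of 0.34 and 0.11, the latter turning to -0.26 under the rescaling without mitochondrial and small RNA genes.

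**Figure D2:**
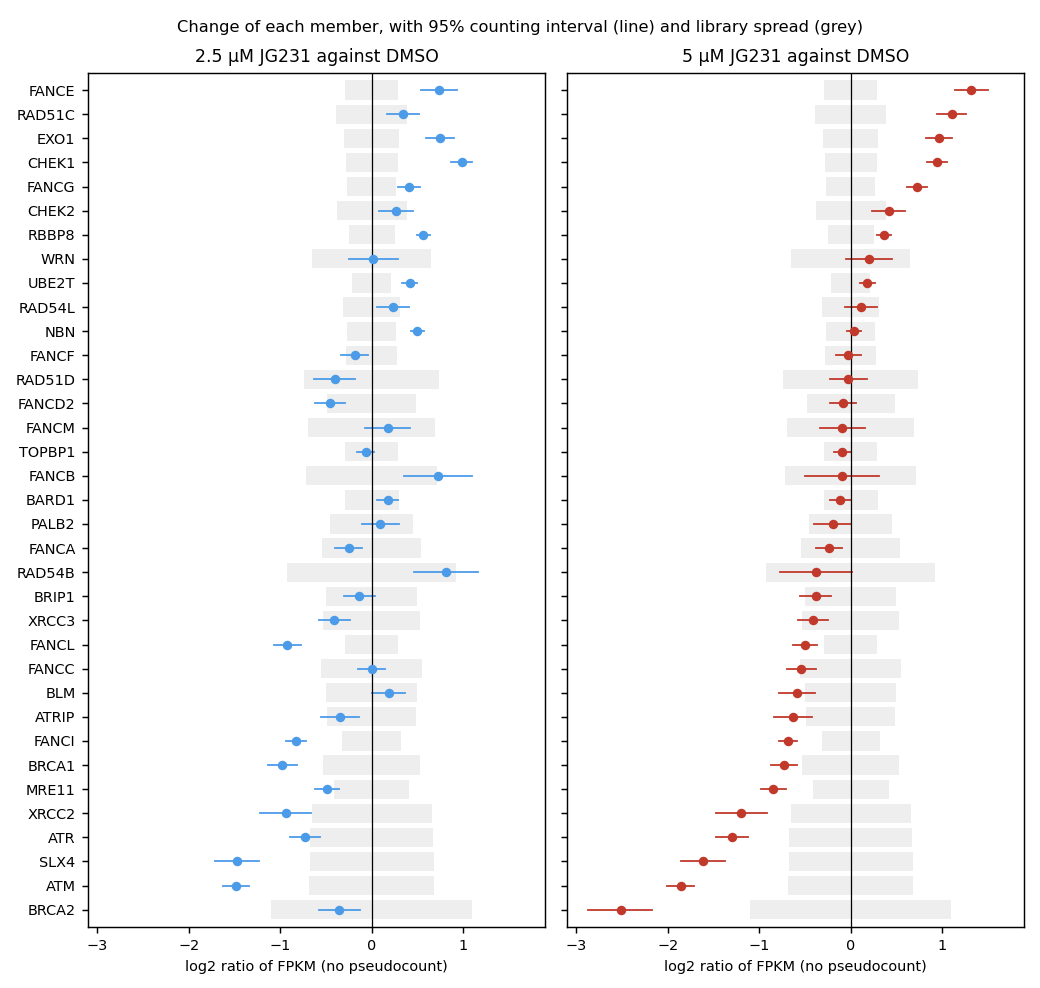
Log2 ratio of FPKM in JG231 against DMSO, without a pseudocount, for the 35 members that passed the filter (left, 2.5 μM; right, 5 μM; points, ratio; lines, exact 95% interval for counting error; grey bars, library spread on either side of 0; both panels share the DMSO library). FANCE, RAD51C, EXO1 and CHEK1 were the highest at 5 μM and BRCA2, ATM, SLX4 and ATR the lowest.

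The Fanconi core complex joined genes with large changes of both signs. FANCE, the subunit that binds FANCD2 to the core, was 7.50 FPKM with DMSO, 12.5 with 2.5 μM and 18.7 with 5 μM, from 325, 685 and 1212 fragments. The level was higher at each dose, with a ratio to DMSO of 1.66 and 2.49, an interval of the log2 ratio between the doses of 0.45 to 0.72, and a change of 1.31 at 5 μM that was the highest of the members. FANCG, a scaffold subunit, followed the same order with 15.9, 21.2 and 26.3 FPKM, although its change at 2.5 μM went from 0.41 to 0.12 on the scale without mitochondrial and small RNA genes, which ends that call. FANCL, the ligase subunit itself, was lower in both JG231 libraries with 23.8, 12.5 and 16.8 FPKM. Its ratio to DMSO was 0.528 at 2.5 μM and 0.706 at 5 μM, so the smaller dose gave the lower level. UBE2T, the conjugating enzyme that serves FANCL, was the most abundant member with 70.2, 93.5 and 79.5 FPKM. It was called higher at 2.5 μM only (0.41), a change that came to 0.12 on the scale without mitochondrial and small RNA genes and to -0.01 once the trend with transcript length was removed, while that at 5 μM went from 0.18 to -0.42. The others moved less or at 1 dose. FANCB was 1.57, 2.60 and 1.47 FPKM, higher at 2.5 μM only and inside its library spread of 0.72. FANCC was 3.18, 3.18 and 2.18 FPKM, lower at 5 μM only (-0.52) and inside its spread of 0.55. FANCA with 4.65, 3.91 and 3.95 FPKM, FANCF with 15.4, 13.5 and 15.1 FPKM and FANCM with 1.74, 1.96 and 1.63 FPKM were called at neither dose. Of the 9 genes, 4 were higher and 1 lower at 2.5 μM and 2 were higher and 2 lower at 5 μM, with a median of 0.17 and -0.08, and of -0.11 and -0.44 under the rescaling without mitochondrial and small RNA genes.

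Downstream of the core, FANCI and the nuclease scaffold SLX4 were lower at both doses, and FANCD2 was called at 2.5 μM alone. FANCI had 13.7 FPKM with DMSO, 7.69 with 2.5 μM and 8.51 with 5 μM, a ratio of 0.563 and 0.623. FANCD2, with which FANCI is clamped on DNA, had 4.89, 3.56 and 4.61 FPKM and was called lower at 2.5 μM only, with a change of -0.45 that lay inside its library spread of 0.48. The ratios of the pair were unequal at 5 μM, where the counting interval of the log2 ratio was -0.78 to -0.58 for FANCI and -0.23 to 0.06 for FANCD2. SLX4, the scaffold of the unhooking nucleases, was 3.24, 1.17 and 1.06 FPKM, from 448, 205 and 219 fragments. Both JG231 libraries were alike and far under DMSO, with intervals of -1.71 to -1.23 and of -1.85 to -1.38. Called lower were all 3 genes with 2.5 μM, and FANCI and SLX4 with 5 μM, for a median of -0.82 and -0.68.

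The doses ordered the members only in part. Between the JG231 libraries, 6 of 35 members were higher at 5 μM (26.8% of 14197 genes tested and 22.2% of protein-coding genes) and 13 were lower (30.1% and 27.1%), and the median of the members was -0.13 beside -0.02 for all genes. Of these calls, 4 higher (RAD51C, FANCE, FANCL and FANCG) and 5 lower (BRCA2, RAD54B, FANCB, BLM and NBN) passed the library spread, which comes from this same difference, beside 18.2% and 19.4% of all genes and 14.1% and 15.7% of protein-coding genes. Past a change of 1, 0 members were higher (7.47% of all genes, 2.39% of protein-coding genes) and BRCA2 and RAD54B were lower (8.09% and 2.83%). FANCE, RAD51C and FANCG were called higher at 5 μM than at 2.5 μM and higher than in DMSO at each dose. At 2.5 μM against DMSO the call of RAD51C (0.34) lay inside its library spread of 0.39 and was lost on the scale without mitochondrial and small RNA genes (0.05) and with the length trend removed (0.20), and that of FANCG was lost on the former (0.12). ATM, ATR, BRCA2, MRE11 and ATRIP were called lower at 5 μM than at 2.5 μM and lower than in DMSO at each dose, of which the call of BRCA2 at 2.5 μM (-0.33) was inside its library spread of 1.10 and was lost with the length trend removed (0.02). Between the doses only BRCA2 of these 5 passed its spread (-1.84), and ATM (-0.34, spread 0.68), ATR (-0.54, spread 0.67), MRE11 (-0.35, spread 0.41) and ATRIP (-0.27, spread 0.48) lay inside theirs. CHEK1 with 17.4 and 17.0 FPKM, SLX4 with 1.17 and 1.06 and XRCC3 with 3.64 and 3.63 stood at nearly the same level at both doses. FANCL, FANCD2 and RAD51D were lowest at 2.5 μM and were called higher at 5 μM than at 2.5 μM, past the library spread for FANCL (0.42, spread 0.29) and inside it for FANCD2 (0.36, spread 0.48) and RAD51D (0.35, spread 0.74), and BRCA1, also lowest at 2.5 μM, differed by 0.24 between the doses.

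**Figure D3:**
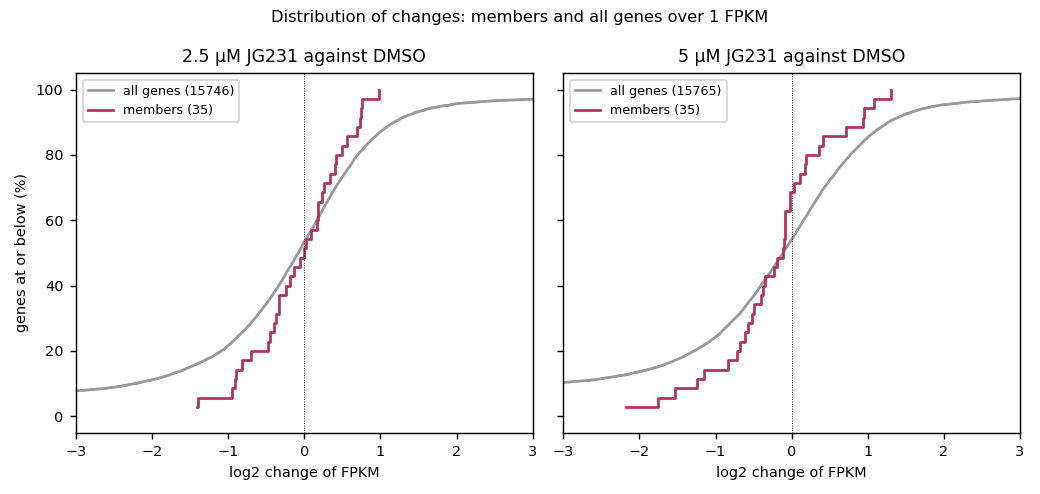
Cumulative distribution of log2 changes of FPKM (x axis; y axis, percent of genes at or below a change; left, 2.5 μM; right, 5 μM) for the 35 members tested (red) and all genes tested (grey, 15746 and 15765). The members span -1.41 to 0.98 at 2.5 μM and -2.17 to 1.31 at 5 μM, and the grey curves run beyond them on both sides.

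Long transcripts had lower values with JG231, in the members and in the table. Ranked against canonical transcript length, the changes of the 35 members had a Spearman correlation of -0.53 with 2.5 μM and -0.55 with 5 μM, and -0.24 and -0.35 over 11809 and 11836 protein-coding genes. These are descriptions across genes, whose values all come from the same 3 libraries of unequal depth, and the part of length in each change was not tested. The median canonical transcript of the tested members was 4622 bases, beside 3291 for protein-coding genes at 2.5 μM. Of the long members, ATM with 12915 bases, BRCA2 with 11954, ATR with 8158, SLX4 with 7315 and BRCA1 with 7088 were lower at both doses. RAD51D with 9966 bases, BRIP1 with 8182, WRN with 7575 and FANCM with 7131 are longer than BRCA1, and their changes lay between -0.38 and 0.19, with RAD51D called lower at 2.5 μM alone (-0.38), BRIP1 at 5 μM alone (-0.37) and WRN and FANCM at neither dose. Of the short members, FANCE with 2576, FANCG with 2556 and RAD51C with 2562 bases were higher, while XRCC3 with 2567 and FANCL with 1658 bases were lower. With the trend removed, ATM came to -1.04 at 2.5 μM and -1.11 at 5 μM, SLX4 to -1.18 and -1.12, and ATR to -0.46 and -0.79. CHEK1 came to 1.01 and 1.05, FANCE to 0.59 and 1.13, and FANCL to -1.19 and -0.88. BRCA1 came to -0.75 and -0.32, and BRCA2 to 0.02 at 2.5 μM and -1.57 at 5 μM. ATR at 2.5 μM and BRCA1 at 5 μM then lay inside their library spreads of 0.67 and 0.53. MRE11 at 2.5 μM did so as well (-0.28, spread 0.41). At 5 μM the long members RAD51D (-0.03 to 0.51), WRN (0.19 to 0.61) and FANCM (-0.09 to 0.31) came past the limit as higher, which with the loss of CHEK2 took the count from 7 to 9 higher, and at 2.5 μM BARD1 (0.30), BLM (0.29) and FANCM (0.38) did so.

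**Figure D4:**
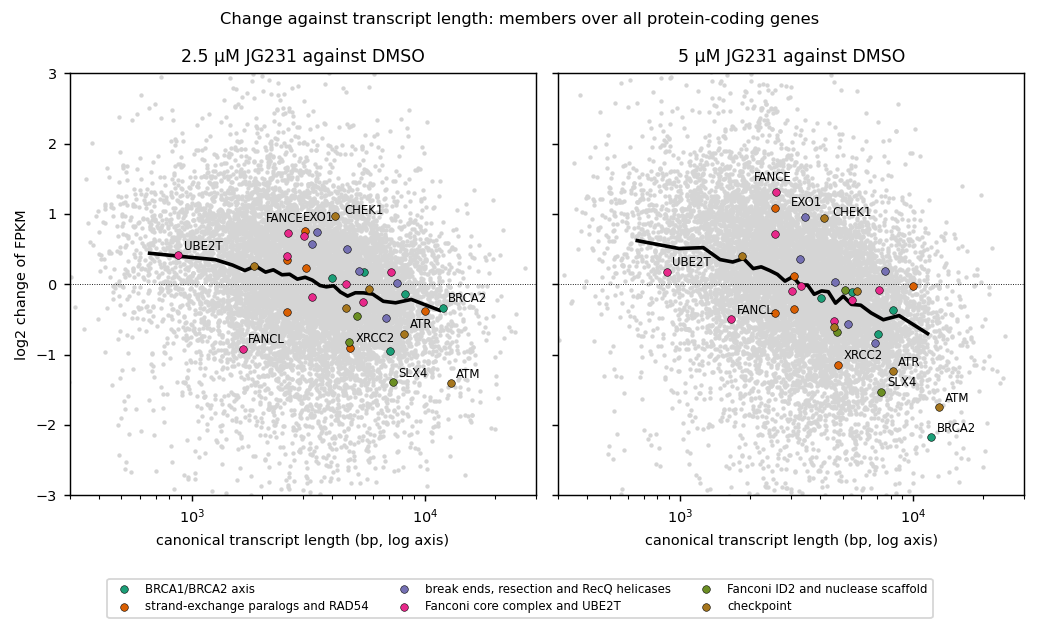
Log2 change of FPKM with JG231 against canonical transcript length (x axis, bases on a log axis; left, 2.5 μM; right, 5 μM; grey points, protein-coding genes; coloured points, the 35 members tested by group; black line, median of the protein-coding genes in 25 bins of length; changes beyond -3 or 3 are not drawn). The line falls with length at both doses; ATM, SLX4, XRCC2, ATR and FANCL lie under it and CHEK1, EXO1 and FANCE above it.

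The members are spread over the genome, with at most 4 on a chromosome (chromosomes 3, 11 and 17). Promoter windows from RefSeq on GRCh38.p14, 250 bases before to 50 after the start, were at hand for 33 of the 37, all but NBN, WRN, RAD54B and FANCI. They were searched on both strands for 4 motifs known from genes of the cell cycle and of repair. Some genes have several windows, and a gene was counted where any of its windows held the motif. An E2F core (TTTCGCGC, TTTGGCGC or TTTCCCGC) was found for 5 of the 33 genes, 15.2% against 3.3% of the 27305 genes with a window. The 5 are XRCC2, EXO1, FANCC, FANCD2 and TOPBP1, of which EXO1 was higher at both doses and XRCC2 lower at both. The palindromic NRF1 motif was in RBBP8 and SLX4, 6.06% against 1.52%, again 1 gene higher and 1 lower at both doses. A CCAAT box was found for 15 of the 33 genes, 45.5% against 39.7%, and the cell-cycle homology element TTTGAA for 4, 12.1% against 18.2%. None of the motifs in the windows shown overlaps another. A match is a run of letters and not a shown binding site. The windows below are shown because genes with the same kind of motif changed in opposite directions and because ATM and SLX4 had the lowest changes at 2.5 μM. Each reads 5′ to 3′ on the strand of its gene, with the motif in capitals, on either strand.
EXO1, chr1:241847954-241848253, plus strand: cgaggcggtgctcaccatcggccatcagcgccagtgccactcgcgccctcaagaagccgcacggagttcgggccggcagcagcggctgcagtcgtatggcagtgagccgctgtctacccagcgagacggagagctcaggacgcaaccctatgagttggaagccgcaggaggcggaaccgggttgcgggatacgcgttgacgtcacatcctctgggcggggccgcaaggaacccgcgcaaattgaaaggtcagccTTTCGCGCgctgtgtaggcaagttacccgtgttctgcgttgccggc
XRCC2, chr7:152676092-152676391, minus strand: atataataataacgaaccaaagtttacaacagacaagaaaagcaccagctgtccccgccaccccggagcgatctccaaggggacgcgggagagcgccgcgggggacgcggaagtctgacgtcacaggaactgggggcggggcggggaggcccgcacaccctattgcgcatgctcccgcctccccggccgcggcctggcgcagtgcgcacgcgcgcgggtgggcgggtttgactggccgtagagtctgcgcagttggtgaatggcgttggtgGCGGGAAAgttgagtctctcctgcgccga
SLX4, chr16:3611557-3611856, minus strand: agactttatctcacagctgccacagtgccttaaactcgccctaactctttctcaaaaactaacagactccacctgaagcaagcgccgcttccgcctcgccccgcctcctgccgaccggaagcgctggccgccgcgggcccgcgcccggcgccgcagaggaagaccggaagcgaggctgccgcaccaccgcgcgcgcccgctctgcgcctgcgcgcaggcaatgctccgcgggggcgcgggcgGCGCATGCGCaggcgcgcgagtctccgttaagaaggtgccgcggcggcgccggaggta
ATM, chr11:108222817-108223116, plus strand: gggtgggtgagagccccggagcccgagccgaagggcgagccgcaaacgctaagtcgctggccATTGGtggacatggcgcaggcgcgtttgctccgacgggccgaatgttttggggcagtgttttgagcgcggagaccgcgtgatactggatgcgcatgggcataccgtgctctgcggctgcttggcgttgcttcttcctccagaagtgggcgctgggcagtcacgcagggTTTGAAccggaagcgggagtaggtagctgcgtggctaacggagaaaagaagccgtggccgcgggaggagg
Counted from 0 at the start, the E2F core of EXO1 begins at 4, that of XRCC2 lies on the opposite strand at 21, the NRF1 motif of SLX4 begins at -8, and in ATM a reversed CCAAT box lies at -188 and TTTGAA at -20.

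Of 54 further genes of recombination, crosslink repair and the break response, 52 passed the filter. At 2.5 μM 16 were higher and 21 lower (30.8% and 40.4%, beside 36.4% and 43.4% of all genes and 38.3% and 37.2% of protein-coding genes). At 5 μM 15 were higher and 23 lower (28.8% and 44.2%, beside 36.5% and 45.1% of all genes and 38.0% and 39.6% of protein-coding genes). The median change was -0.16 at both doses, and -0.44 at 2.5 μM on the scale without mitochondrial and small RNA genes. Summed levels were 748 FPKM with DMSO, 763 with 2.5 μM and 754 with 5 μM. HUS1, a subunit of the clamp that activates ATR, was 2.51, 7.80 and 6.29 FPKM. HROB, which recruits a repair helicase, was 1.43, 4.87 and 4.87 FPKM. Both were higher in the JG231 libraries, and GEN1 and ETAA1 were lower. GEN1, a resolvase of crossed strands, was 3.97, 1.26 and 1.51 FPKM, and ETAA1, another activator of ATR, was 4.89, 1.61 and 1.97 FPKM. Of 16 proliferation genes, examined because many members are expressed in cycling cells, 6 were higher and 7 lower at 2.5 μM (37.5% and 43.8%). At 5 μM 5 were higher and 6 lower (31.2% and 37.5%). Their median change was -0.18 at 2.5 μM and -0.09 at 5 μM. The summed levels of 991, 979 and 1041 FPKM included PCNA, the most abundant of the list, at 340, 332 and 390 FPKM. The proliferation marker MKI67 had 16.0, 8.55 and 5.55 FPKM and the E2F1 gene 56.6, 90.3 and 87.2 FPKM, so the list held changes of both signs as the members did. In a culture, fewer cells in a phase of the cycle and less RNA per cell cannot be told apart.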

How the data were processed

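RNA-seq of H660 cells treated with DMSO, 2.5 μM or 5 μM JG231 for 24 h was analysed, 1 library per condition. The authors deposited gene-level FPKM values. According to the methods, reads were aligned with HISAT and quantified with StringTie; the submitters' processing notes name HISAT2, featureCounts, GRCh38 and hg38. Tool versions and annotation release are not given in the sources used here, nor whether counting used the strand of the stranded libraries.

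Rows were matched by identifier to GENCODE release 44 (58207 of 58735 genes), which gave coordinates and lengths. FPKM multiplied by a whole exon length gave whole fragments in all 3 libraries, within 0.001 fragments, for 99.3% of 8016 protein-coding genes with at most 2000 fragments, so fragments and exact binomial (Clopper-Pearson) intervals of ratios were computed. Fragments are known up to a common whole factor; the smallest was taken unless 2 or 3 times it matched the GENCODE length within 1% (EXO1, MRE11). A true count could thus be a multiple of the one printed, with a narrower interval. Intervals cover counting error only. No count model was fitted.

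The filter, pseudocount and threshold follow the methods. Members and lists were chosen with earlier results of these data known. Values in full are given for members past the library spread at both doses with the same sign and for the most abundant member of each group. From the companion lists, the 5 higher and 5 lower genes with the largest smaller change of the 2 doses are named, among those with a mean of at least 1 FPKM and the same sign at both. MKI67, E2F1, PCNA, MDM2 and the Ku subunits, and the full values of the other members, were added with their values in view. Some results that these rules or lists would give are not reported here. The alternatives tried were other pseudocounts, filters and thresholds, rescaled libraries, centring, removal of the length trend by lowess (fraction 0.3), a protein-coding background, rows summed by symbol and, chosen after seeing the data, leaving out members with at least 25% of exonic bases shared. Scripts were tested on simulated data. Tables were handled with pandas 2.3.3 and numpy 2.4.6 in Python 3.11.15, intervals came from scipy 1.17.1, lowess from statsmodels 0.14.6 and plots from matplotlib 3.10.9.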

Additional observations from a re-analysis of the deposited data

How the results depend on the processing

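No paired analysis was possible because each condition has 1 library, and for the same reason no replicate could be left out. Rescaling the libraries without mitochondrial and small RNA genes gave 6 members higher at 2.5 μM and 26 lower at 5 μM, with medians at 5 μM of -0.26 for break ends, resection and RecQ helicases and -0.44 for the Fanconi core, and turned CHEK2 at 2.5 μM (-0.028) and RBBP8 at 5 μM (-0.017). It ended 5 calls of higher at 2.5 μM (RAD51C, NBN, FANCG, UBE2T and CHEK2) and 2 at 5 μM (RBBP8 and CHEK2), and no call of lower. The median gene moved to -0.28 and -0.38. Removing the length trend ended the calls of RAD51C, RAD51D and CHEK2 at 2.5 μM and of CHEK2 at 5 μM, turned BRCA2 (0.016) and UBE2T (-0.009) at 2.5 μM and BRIP1 (0.079) at 5 μM, and took UBE2T at 5 μM from 0.18 to -0.42; the cause was not tested. A mean of at least 5 FPKM left 16 members, with 9 higher and 3 lower at 2.5 μM and 7 and 3 at 5 μM, medians of 0.30 and 0.15 over these members, checkpoint medians of 0.26 at 2.5 μM and 0.41 at 5 μM over the 3 genes left (CHEK1, CHEK2 and TOPBP1), and a midpoint of 0.60 at 5 μM for RAD51C and RAD54L, the 2 left of the 7 strand-exchange and RAD54 genes. A threshold of 1 gave 0 higher and 2 lower at 2.5 μM and 2 higher and 5 lower at 5 μM, and a threshold of 0.5 gave 6 higher and 7 lower at 2.5 μM and 5 higher and 12 lower at 5 μM. Centring, a pseudocount of 0.01 FPKM, the common FPKM sum and summing rows by symbol moved no member's change by more than its library spread, and a pseudocount of 1 FPKM moved that of BRCA2 at 5 μM (-1.05). The common FPKM sum still ended the call of RBBP8 at 5 μM (0.231), and a pseudocount of 1 FPKM those of BRCA2, RAD51D and CHEK2 at 2.5 μM and RAD54B at 5 μM. Without the members that share exons, the counts were 10 higher and 11 lower at 2.5 μM and 7 and 12 at 5 μM. Genes of few fragments, such as BRCA2 with 86 at 5 μM, carry the widest intervals.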

Other observations

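The other route of break repair, non-homologous end joining, was measured in 8 genes, of which 7 passed the filter. At 2.5 μM 1 was higher and 4 were lower (14.3% and 57.1%, beside 36.4% and 43.4% of all genes). At 5 μM 2 were higher and 3 lower (28.6% and 42.9%, beside 36.5% and 45.1% of all genes). Among protein-coding genes the shares were 38.3% and 37.2% at 2.5 μM and 38.0% and 39.6% at 5 μM. The median change was -0.39 at 2.5 μM and -0.12 at 5 μM. Among end-joining genes with a mean of at least 5 FPKM it was -0.006 and 0.175. Rescaling without mitochondrial and small RNA genes took the main median to -0.67 and -0.49. PRKDC, the catalytic kinase subunit of this route, had 47.3 FPKM with DMSO, 17.1 with 2.5 μM and 14.3 with 5 μM, and DCLRE1C, which encodes the nuclease Artemis, had 3.85, 1.82 and 1.70 FPKM. The end-binding Ku subunits stood apart from PRKDC, with XRCC5 at 81.7, 82.4 and 84.0 FPKM and XRCC6 at 78.9, 77.5 and 97.7 FPKM, both named after their values were seen. Of 11 genes known as targets of p53, 5 were higher at each dose (45.5%, beside 36.4% of all genes at 2.5 μM and 36.5% at 5 μM). Called lower were 4 at 2.5 μM (36.4%, beside 43.4% of all genes) and 3 at 5 μM (27.3%, beside 45.1%). The median of these targets was 0.10 at 2.5 μM and 0.14 at 5 μM. It came to -0.175 and -0.237 under the same rescaling, and to 1.001 and 0.6 with a mean of at least 5 FPKM. SESN2, BBC3 and GADD45A had the highest changes, at 3.31, 2.65 and 3.09 at 2.5 μM and 3.30, 2.58 and 3.02 at 5 μM, and TP53INP1 had 16.0, 6.87 and 7.76 FPKM. MDM2 was also lower at both doses, at -0.47 and -0.74, past its library spread of 0.34. The list thus held changes of both signs.

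TREX1, which shares exonic bases with ATRIP on the same strand, was listed at 0 in all 3 libraries. FSBP, which shares them with RAD54B, was listed at 0, 0 and 0.127 FPKM. How fragments on shared bases were counted is not given in the sources used here, so these low values are uncertain.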
